A study of Mus musculus with 7 samples.

Results

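The comparison described here sets all 4 libraries of fetal mammary stem cells (fMaSC, the name the labels give to a fraction enriched for such cells) against all 3 libraries of fetal mammary stroma, so it takes in 7 of the 7 libraries of the series. Cells came from mammary rudiments of CD1 mouse embryos at E17.5, a late day of gestation, and were sorted fresh by either of 2 strategies. A Sox10-Venus fluorescent reporter together with the surface protein EpCAM gave 2 libraries of Sox10+EpCAM+ fMaSC, with 1 library of EpCAM-negative stroma beside them. CD24 together with CD49f gave 2 libraries each of CD24+CD49f+ fMaSC and of CD24low stroma. Lineage-negative sorting (removal of cells that bear markers of other lineages) is stated for all libraries by label or column name, although the label of Sox10+EpCAM+ replicate 1 leaves it out where its column name has it. The EpCAM-negative stroma group is a single library without a replicate, and its column name also gives it as Sox10-negative. The labels call the libraries of a group biological replicates without naming animals or litters, so p-values measure only the spread among these libraries.

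The fetal mammary gland at this stage is a small epithelial bud and sprout lying in mesenchyme that becomes the fat pad. The epithelium is held together by tight junctions, desmosomes and E-cadherin and carries keratins of both the luminal and the basal lineage, whereas the mesenchyme makes fibrillar collagens, proteoglycans and growth factors. Signals pass between the layers, with ligands often made on one side and receptors on the other, as with parathyroid hormone-related protein and its receptor or with FGF10 and FGFR2.

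Values are FPKM (fragments per kilobase of transcript, scaled to the number of fragments sequenced), without counts. Fold changes are fMaSC minus stroma on the log2(FPKM + 1) scale, a scale on which changes of weakly expressed genes come out too small, and are given ± SE. They come from a limma model of cell type plus sorting strategy over 14418 genes that reached 1 FPKM in at least 2 libraries, and a gene is called where the adjusted p is under 0.05. The 2 values of a replicated group are always given in the order of replicate 1 and replicate 2. Depth estimated from the lowest values was 22.35 M to 33.7 M fragments per library, 12790 to 13639 genes reached 1 FPKM, and mitochondrial genes took 6.23% (EpCAM-negative stroma) to 19.0% (Sox10+EpCAM+ replicate 1) of summed FPKM. Summed FPKM ran from 378952 to 752738, so the libraries are not on a common sum. In a bulk library, fewer cells of a type and less RNA per cell cannot be told apart.

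The genes behind the sort were checked first. Epcam measured 219 and 230.3 FPKM in the Sox10+EpCAM+ libraries, 137 and 88.5 in the CD24+CD49f+ libraries, 1.19 in EpCAM-negative stroma and 0.532 and 0.428 in CD24low stroma. Sox10, the neural crest and mammary progenitor transcription factor, measured 103 and 110.3 FPKM in the Sox10+EpCAM+ libraries, 57.98 and 58.7 in the CD24+CD49f+ libraries, 0.493 in EpCAM-negative stroma and 1.55 and 0.848 in CD24low stroma. Both genes stood far above stroma in all 4 fMaSC libraries, those of the CD24-CD49f sort included, where neither Epcam nor the Sox10 reporter was used. Cd24a and Itga6, which encode CD24 and CD49f, differed by 4.89 and 2.26. Since each of these genes was selected in at least 1 of the sorts, their differences are a check of the labels and no finding. Itga6 remained at 19.6 FPKM in EpCAM-negative stroma and 22.3 and 20.5 FPKM in CD24low stroma, the least separated of the 4 markers. Of the sequences added to the table, spliced GFP read 202 and 211 FPKM in the Sox10+EpCAM+ libraries and at most 0.660 elsewhere. Its link to the Sox10-Venus reporter was not tested.

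Of the 14418 genes, 3621 (25.1%) were called, 2252 of them (15.6%) higher and 1369 (9.50%) lower in fMaSC. Among the called genes 62.2% were higher in fMaSC. That share fell to 46.0% with each library scaled to the same sum (TPM), to 44.7% with quantile normalization and to 47.1% with median-of-ratios scaling, which moved the median of all genes by -0.42, -0.11 and -0.12 from 0.12. The balance of calls therefore depends on the scaling, and small differences below are to be read against that shift. A log2 fold change of at least 3 was reached by 146 genes higher (142 of them called) and 47 lower (38 called), and one of at least 4 by 58 higher (57 called) and 1 lower (called). All 4 fMaSC libraries lay above all 3 stroma libraries for 3365 genes (23.3% of those tested), 2210 of them called higher, and below them for 1971 (13.7%), 1280 of them called lower. Each of the 3621 called genes had the same sign within both sorting strategies, each taken alone. The pooled value averages these within-sort values, and their difference enters its error. A call thus makes equal signs likely in advance, so this is no independent repeat of the result.

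Among called genes the largest rises belonged to secreted proteins, keratins, claudins and protease inhibitors of epithelia. These genes, and the largest falls below, were picked among called genes whose fMaSC and stroma libraries did not overlap. Their lack of overlap is thus set by the choice. Cytl1 (chr5:37735518-37739820, mm10), a small secreted protein known from cartilage, rose by 6.63 ± 0.49, adjusted p = 0.000329. Its libraries read 413 and 171 FPKM in the Sox10+EpCAM+ libraries, 75.6 and 47.7 in the CD24+CD49f+ libraries, 0.179 in EpCAM-negative stroma and 0.0416 and 0.0998 in CD24low stroma. The fMaSC values varied widely among themselves, highest in Sox10+EpCAM+ replicate 1 and lowest in CD24+CD49f+ replicate 2, but no fMaSC library came near stroma. Csn3 (chr5:87925578-87932665), the milk protein kappa-casein, measured 311 and 263 FPKM in the Sox10+EpCAM+ libraries, 229 and 66.5 in the CD24+CD49f+ libraries, 1.12 in EpCAM-negative stroma and 0.558 and 0.684 in CD24low stroma (6.59 ± 0.42, adjusted p = 0.000198). Transcripts of a milk protein were thus abundant in all 4 fetal epithelial libraries, lowest in CD24+CD49f+ replicate 2. Krt8 (chr15:101996710-102004342) and its partner Krt18 (chr15:102028215-102032026), keratins of simple epithelia, rose by 5.93 and 5.75, and Krt8 measured 140.0 and 169.8 FPKM in the Sox10+EpCAM+ libraries, 108 and 59.7 in the CD24+CD49f+ libraries, 1.304 in EpCAM-negative stroma and 0.498 and 0.367 in CD24low stroma. In stroma the EpCAM-negative library had the most of both keratins.

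Among the next largest, Igfbp2, a binding protein of insulin-like growth factors, rose by 5.73 ± 0.27, adjusted p = 9.74e-05. Col9a3, a chain of collagen IX, rose by 5.53 ± 0.20, adjusted p = 7.65e-05. Aldoc, the aldolase best known from brain, rose by 5.52 ± 0.29, adjusted p = 0.000124. Aldoc read 136 and 117 FPKM in the Sox10+EpCAM+ libraries, 56.7 and 54.3 in the CD24+CD49f+ libraries, 0.592 in EpCAM-negative stroma and 0.505 and 1.09 in CD24low stroma, so that the replicates of each fMaSC pair lay close together, with the Sox10+EpCAM+ pair higher. Spint2, an inhibitor of membrane serine proteases, rose by 5.39, the stress-linked adaptor Sfn (14-3-3 sigma) by 5.38, the claudins Cldn4 and Cldn6 by 5.38 and 5.29, the basal keratin Krt14 by 5.33 and the placenta-expressed transcript gene Plet1 by 5.25. All of these calls were kept in each of the 7 fits that left out 1 library. Measured by FPKM rather than by fold, the largest rises among called genes were those of Ptma, Mgp, Cd24a, Cfl1 and Eno1b. Mgp, matrix Gla protein, an inhibitor of calcification, measured 501 and 376 FPKM in the Sox10+EpCAM+ libraries, 362 and 97.01 in the CD24+CD49f+ libraries, 23.5 in EpCAM-negative stroma and 17.46 and 27.4 in CD24low stroma (3.49 ± 0.49, adjusted p = 0.00426). Ptma (prothymosin alpha) and Cfl1 (cofilin) rose by 1.14 and 0.86, and those calls were lost in 5 and 6 of the 7 fits without 1 library, with adjusted p up to 0.195 and 0.237. Eno1b is a near-identical copy of Eno1, so its value of 1.48 is uncertain.

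Among called genes the largest falls were matrix and fat pad genes, and they had another shape across libraries. Car3 (chr3:14863537-14872351), the carbonic anhydrase of fat and muscle, measured 3.01 and 1.28 FPKM in the Sox10+EpCAM+ libraries, 262 and 121 in the CD24+CD49f+ libraries, 436 in EpCAM-negative stroma and 798 and 905 in CD24low stroma (-4.22 ± 0.97, adjusted p = 0.0233). Pi16 (chr17:29318876-29329413), a peptidase inhibitor known as a marker of a fibroblast progenitor state, measured 0.291 and 0.281 FPKM in the Sox10+EpCAM+ libraries, 6.11 and 3.05 in the CD24+CD49f+ libraries, 37.1 in EpCAM-negative stroma and 43.9 and 66.4 in CD24low stroma (-3.97 ± 0.37, adjusted p = 0.000785). In both genes the order was Sox10+EpCAM+ lowest, CD24+CD49f+ between and stroma highest. That stroma did not overlap with fMaSC was a condition of the choice. Col1a1 (chr11:94936223-94953042), the alpha1 chain of collagen I, measured 9.51 and 16.9 FPKM in the Sox10+EpCAM+ libraries, 386 and 883 in the CD24+CD49f+ libraries, 1751 in EpCAM-negative stroma and 1877 and 1442 in CD24low stroma (-3.69 ± 1.09, adjusted p = 0.0481). Col3a1 (chr1:45311537-45349706), the chain of collagen III, measured 13.3 and 23.9 FPKM in the Sox10+EpCAM+ libraries, 749 and 1058 in the CD24+CD49f+ libraries, 1916 in EpCAM-negative stroma and 2414 and 2132 in CD24low stroma (-3.47 ± 1.03, adjusted p = 0.0494). The CD24+CD49f+ libraries thus still held abundant transcripts of both collagens, at values below stroma but far above the Sox10+EpCAM+ libraries. Within the CD24-CD49f sort the limma fold changes of Col1a1 and Col3a1 were -1.49 (adjusted p = 0.129) and -1.35 (adjusted p = 0.0978), so neither passed there. In the Sox10 sort, with 1 stroma library, they were -7.00 and -6.66. The calls of Pi16, Efemp1 and Cd34 were kept in all 7 fits without 1 library, and that of Rgs5 was lost only without the EpCAM-negative library (adjusted p = 0.0624). Car3 lost its call without either Sox10+EpCAM+ library (up to 0.0607), Col1a1 in 5 of the 7 fits (up to 0.119) and Col3a1 in 6 (up to 0.122).

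**Figure D1:**
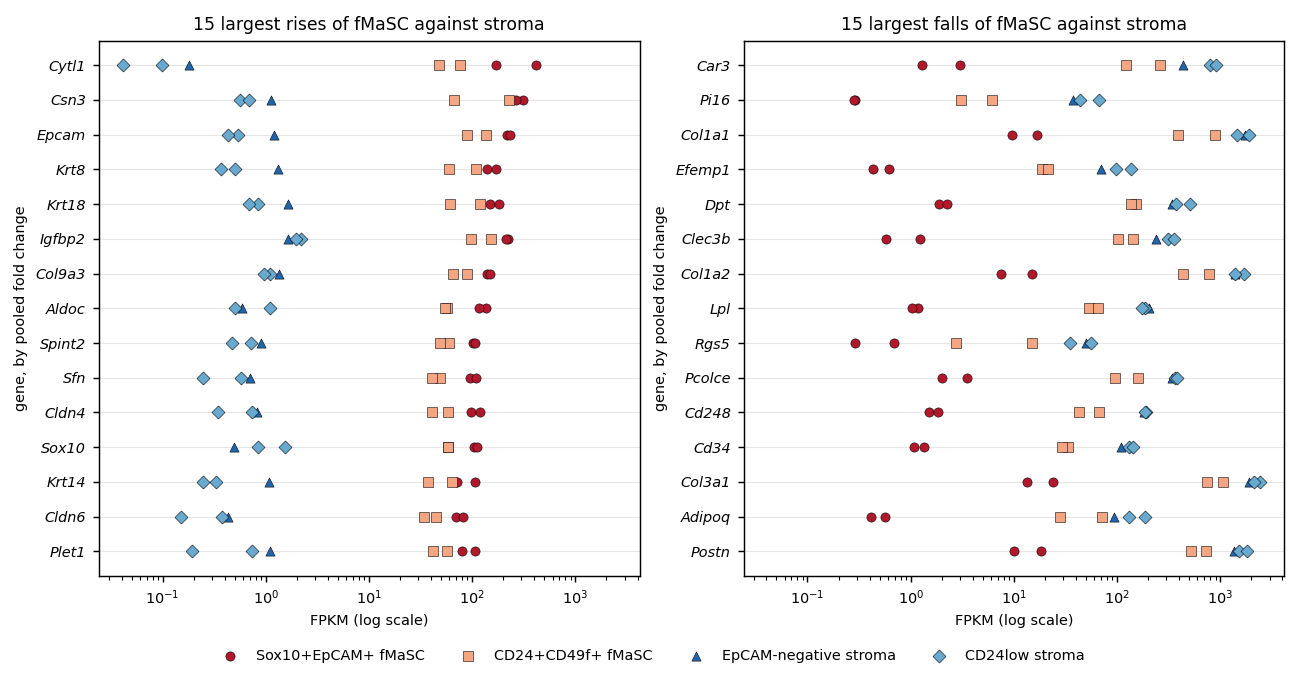
FPKM (log scale) in each of the 7 libraries for the 15 called genes with the largest rises (left) and falls (right) in fMaSC against stroma, 1 symbol per library and a symbol shape per group. The genes were picked among those whose fMaSC and stroma libraries do not overlap, so that separation is set by the choice. On the left the 4 fMaSC libraries sit far right of the 3 stroma libraries. On the right the CD24+CD49f+ libraries lie between the Sox10+EpCAM+ libraries and stroma. Col3a1 reads 13.3 and 23.9 FPKM in Sox10+EpCAM+ fMaSC, 749 and 1058 in CD24+CD49f+ fMaSC and 1916 to 2414 in stroma.

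The promoters of a few of these genes are printed to show the letters that the largest rises and falls carry just before the start of the gene. They are the 250 bases before the start, from RefSeq on GRCm38.p6, written 5′ to 3′ on the strand of the gene. Capitals mark CACCTG on either strand (read as CAGGTG on the other), the E-box that the Snail and Zeb repressors are known to bind. They also mark TATAAA on either strand, the core letters of a TATA box. Matches were taken at any distance from the start, so a match is not by itself a working site. The genes were picked after their folds were seen, for having a promoter in the RefSeq table and a match in it. The first 5 are genes that rose, at chr17:87635729-87635978 (plus strand), chr15:102004343-102004592 (minus), chr15:102027966-102028215 (plus), chr5:134946935-134947184 (minus) and chr7:29281978-29282227 (minus), and the last pair are genes that fell, at chr1:45311288-45311537 (plus) and chr3:54360857-54361106 (plus).
Epcam: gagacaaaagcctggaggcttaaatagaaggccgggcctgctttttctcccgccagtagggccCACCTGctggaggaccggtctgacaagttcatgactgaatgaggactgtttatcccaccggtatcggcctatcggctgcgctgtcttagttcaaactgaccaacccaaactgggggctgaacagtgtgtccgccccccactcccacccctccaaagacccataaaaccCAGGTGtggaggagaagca
Krt8: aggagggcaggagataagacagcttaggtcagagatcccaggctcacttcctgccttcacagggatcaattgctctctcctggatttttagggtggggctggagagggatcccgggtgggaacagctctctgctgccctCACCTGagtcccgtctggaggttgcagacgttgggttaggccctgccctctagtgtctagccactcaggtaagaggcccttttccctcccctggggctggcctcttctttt
Krt18: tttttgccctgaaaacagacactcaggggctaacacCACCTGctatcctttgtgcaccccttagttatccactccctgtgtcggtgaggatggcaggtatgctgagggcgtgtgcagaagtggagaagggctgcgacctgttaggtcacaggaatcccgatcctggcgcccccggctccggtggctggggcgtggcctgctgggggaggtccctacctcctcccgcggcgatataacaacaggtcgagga
Cldn4: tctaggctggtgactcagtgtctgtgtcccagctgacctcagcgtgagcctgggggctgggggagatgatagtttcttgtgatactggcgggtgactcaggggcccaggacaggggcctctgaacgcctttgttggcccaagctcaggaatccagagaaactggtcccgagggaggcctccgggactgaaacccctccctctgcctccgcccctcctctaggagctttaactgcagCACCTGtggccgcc
Spint2: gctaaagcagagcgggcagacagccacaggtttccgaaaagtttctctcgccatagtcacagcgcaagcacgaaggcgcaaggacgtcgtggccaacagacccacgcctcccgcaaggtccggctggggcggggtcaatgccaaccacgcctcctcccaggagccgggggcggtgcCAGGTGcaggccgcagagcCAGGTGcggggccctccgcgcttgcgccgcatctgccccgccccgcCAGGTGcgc
Col3a1: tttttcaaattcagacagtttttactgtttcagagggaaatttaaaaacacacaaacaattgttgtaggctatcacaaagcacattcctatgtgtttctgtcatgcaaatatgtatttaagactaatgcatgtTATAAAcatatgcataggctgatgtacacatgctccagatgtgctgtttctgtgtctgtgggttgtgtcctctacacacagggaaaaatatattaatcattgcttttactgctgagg
Postn: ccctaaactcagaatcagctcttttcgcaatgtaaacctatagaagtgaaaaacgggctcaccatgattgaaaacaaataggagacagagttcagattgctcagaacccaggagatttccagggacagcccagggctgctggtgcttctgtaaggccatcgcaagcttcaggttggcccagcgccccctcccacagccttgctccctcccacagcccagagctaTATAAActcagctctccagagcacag
The Epcam promoter held 2 CACCTG matches, starting 187 and 19 bases before the start, and the Spint2 promoter held 3, starting 74, 55 and 9 bases before it. Krt8, Krt18 and Cldn4 held 1 each. TATAAA lay 26 bases before the start of Postn and 117 before that of Col3a1. Of 9810 promoters of tested genes, 14.6% held CACCTG and 6.14% held TATAAA, with a median GC content of 60.4%. Among the 101 genes with a promoter that were called with a log2 fold change of 3 or more, 39 (38.6%) held CACCTG and 6 (5.94%) TATAAA, at a median GC content of 58.4%. Among the 20 that were called at -3 or less, 5 (25.0%) held CACCTG and 4 (20.0%) TATAAA, at 53.0%. The shares are a description of letters in these windows and were not matched for base composition.

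Most cell-cell junction genes rose. Of 17 tight junction genes 16 were called higher and none lower (median 2.17, against 0.12 over all genes tested). Over all genes tested 15.6% were called higher and 9.50% lower, and the counts of each list below are to be read against those shares. A gene under 1 FPKM throughout a cell type passes the filter only through the other cell type. Its direction is then partly set in advance. The claudins Cldn4, Cldn6, Cldn7 and Cldn3, which form the junction strands, rose by 5.38, 5.29, 5.14 and 3.92. Cldn7 measured 83.8 and 88.7 FPKM in the Sox10+EpCAM+ libraries, 55.6 and 41.3 in the CD24+CD49f+ libraries, 0.897 in EpCAM-negative stroma and 0.605 and 0.697 in CD24low stroma, with every stroma value under 1 FPKM. The tricellular junction protein Lsr and occludin (Ocln) rose by 4.42 and 3.47, and the scaffold Tjp1, which many cell types use, was not called (0.40 ± 0.27, adjusted p = 0.283). The adherens junction and desmosome list had 13 of 15 higher and none lower (median 2.43). Cdh1, E-cadherin, measured 48.9 and 60.3 FPKM in the Sox10+EpCAM+ libraries, 23.7 and 30.1 in the CD24+CD49f+ libraries, 0.597 in EpCAM-negative stroma and 0.435 and 0.178 in CD24low stroma (4.69 ± 0.21, adjusted p = 8.31e-05). The desmosomal Perp, Pkp3 and Dsp rose by 5.03, 4.71 and 4.06, while Ctnnb1 and Ctnna1, the catenins that cadherins of all kinds bind, rose by 0.99 and 0.82. Of the calls on these lists, 13 of 16 and 10 of 13 were kept in all 7 fits without 1 library.

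Polarity and apical traffic genes followed, with 12 of 16 higher and none lower (median 1.64). Rab25, a GTPase of apical recycling, rose by 3.67, ezrin (Ezr) by 3.46 and the Crumbs protein Crb3 by 3.37. Crb3 read 14.7 and 14.6 FPKM (Sox10+EpCAM+), 8.99 and 6.29 (CD24+CD49f+), 0 (EpCAM-negative) and 0.146 and 0.0391 (CD24low), so it was listed at 0 in the EpCAM-negative library. The broadly used polarity genes Pard3 and Prkci were not called (0.61 ± 0.20, adjusted p = 0.0688 and 0.48 ± 0.20, adjusted p = 0.111). Of 12 listed membrane serine proteases and inhibitors, 4 were below the filter. All 8 tested members rose (median 2.95), and each call was kept in all 7 fits without 1 library. The whole list summed to only 1.81 to 2.92 FPKM in stroma. Most members thus passed the filter through fMaSC, which favours a rise in advance. Spint2, Spint1 and their target protease St14 (matriptase) rose by 5.39, 4.21 and 3.98. Prss8 (prostasin) measured 9.33 and 9.49 FPKM (Sox10+EpCAM+), 5.78 and 5.58 (CD24+CD49f+), 0.107 (EpCAM-negative) and 0.0395 and 0 (CD24low). Inhibitor and protease transcripts were thus high in the same 4 libraries and below 1 FPKM in all stroma for each of these 4 genes.

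Regulators of epithelial identity had 18 of 19 members higher and none lower (median 2.89), with 16 of the 18 calls kept in all 7 fits without 1 library. Tfap2c, an AP-2 factor of mammary epithelium, measured 44.5 and 43.9 FPKM in the Sox10+EpCAM+ libraries, 22.2 and 26.5 in the CD24+CD49f+ libraries, 0.154 in EpCAM-negative stroma and 0.1297 and 0.04599 in CD24low stroma (4.84 ± 0.19, adjusted p = 7.65e-05). Esrp1, which directs epithelial splicing, measured 29.6 and 33.7 FPKM in the Sox10+EpCAM+ libraries, 15.1 and 17.9 in the CD24+CD49f+ libraries, 0.202 in EpCAM-negative stroma and 0.103 and 0.0792 in CD24low stroma (4.302 ± 0.19, adjusted p = 9.06e-05). Both were below 0.3 FPKM in each stroma library, and the fMaSC pairs of the same sort differed little. Ovol1, a repressor of mesenchymal genes, rose by 3.58, the grainyhead factor Grhl2 by 2.89 and Bcl11a, a factor of mammary progenitors, by 2.602. Sox9, also expressed in mesenchyme and cartilage, was the member that was not called (0.42 ± 0.23, adjusted p = 0.203). It measured 16.8 and 18.9 FPKM in the Sox10+EpCAM+ libraries, 13.2 and 26.4 in the CD24+CD49f+ libraries, 13.2 in EpCAM-negative stroma and 13.1 and 14.04 in CD24low stroma, with overlap between fMaSC and stroma.

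Keratins of both mammary lineages rose together. The luminal list had 14 of 17 higher and 2 lower (median 2.16), and the basal list 12 of 18 higher and 2 lower (median 2.04). Of the luminal factors, Gata3, which maintains the luminal lineage, and Elf5, which drives alveolar differentiation, rose by 3.95 and 3.27. Gata3 measured 27.98 and 30.3 FPKM in the Sox10+EpCAM+ libraries, 14.6 and 17.1 in the CD24+CD49f+ libraries, 0.507 in EpCAM-negative stroma and 0.457 and 0.139 in CD24low stroma. The whey protein gene Lalba (alpha-lactalbumin) and Wfdc18 rose by 3.39 and 5.23. Lalba measured 34.2 and 24.4 FPKM (Sox10+EpCAM+), 8.003 and 3.32 (CD24+CD49f+), 0.255 (EpCAM-negative) and 0.0597 and 0 (CD24low) and was higher in the Sox10+EpCAM+ pair than in the CD24+CD49f+ pair, while CD24low replicate 2 was listed at 0. The members that fell were Esr1, the estrogen receptor alpha (-1.39 ± 0.34, adjusted p = 0.0292), and Prlr, the prolactin receptor (-0.87 ± 0.20, adjusted p = 0.0251). Esr1 measured 0.0917 and 0.0822 FPKM in the Sox10+EpCAM+ libraries, 1.15 and 2.23 in the CD24+CD49f+ libraries, 4.13 in EpCAM-negative stroma and 4.92 and 2.68 in CD24low stroma. Its lowest level was in the Sox10+EpCAM+ libraries, and each stroma library exceeded all 4 fMaSC libraries.

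Among basal genes Krt14, Krt5 and Krt17, keratins of stratified and myoepithelial cells, rose by 5.33, 4.43 and 4.28, P-cadherin (Cdh3) by 3.94 and Trp63, the basal master regulator, by 2.02. Krt5 measured 23.4 and 34.1 FPKM in the Sox10+EpCAM+ libraries, 21.02 and 20.6 in the CD24+CD49f+ libraries, 0.266 in EpCAM-negative stroma and 0.0985 and 0.0198 in CD24low stroma. All stroma values were below 0.3 FPKM, and the 4 fMaSC libraries lay within 20.6 to 34.1 FPKM. The contractile genes of the same list did not share this pattern. Myh11 and Mylk, smooth muscle myosin and its kinase, fell (-2.45 ± 0.36, adjusted p = 0.00483 and -2.35 ± 0.32, adjusted p = 0.00361), and Acta2, smooth muscle actin, was not called (-0.59 ± 0.40, adjusted p = 0.291). Acta2 measured 50.03 and 56.9 FPKM in the Sox10+EpCAM+ libraries, 75.6 and 21.5 in the CD24+CD49f+ libraries, 71.8 in EpCAM-negative stroma and 63.6 and 69.1 in CD24low stroma, with overlap between the cell types. Of the 16 luminal and 14 basal calls, 10 and 12 were kept in all 7 fits without 1 library. Without the EpCAM-negative library 11 of the luminal calls were kept.

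The basement membrane list was split. It had 10 of 23 higher and 1 lower (median 0.10, -0.10 with libraries scaled to the same sum and -0.13 with quantile normalization). The genes that rose were hemidesmosome and epithelial laminin parts. Itgb4 and Itga3, integrin chains that bind laminin, rose by 3.35 and 3.11, the laminin chain Lama5 by 2.52, and the hemidesmosomal collagen Col17a1 by 2.27. Nid1, the linker nidogen-1, changed by -2.905 ± 0.78, adjusted p = 0.0378, a call that was lost in 5 of the 7 fits without 1 library (adjusted p up to 0.0971). The main sheet collagens Col4a1 and Col4a2 were not called (-0.83, adjusted p = 0.0906, and -0.81, adjusted p = 0.112). Their X-linked relatives Col4a5 and Col4a6 rose by 1.24 and 1.63.

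Of 15 genes of a cartilage-type matrix list, 7 were below the filter. Of the 8 tested, 7 rose and none fell (median 2.81), and all 7 calls were kept in all 7 fits without 1 library. Cytl1, Col9a1 and Matn4 were under 1 FPKM in every stroma library, so they passed the filter only through fMaSC. All chains of collagen IX rose, Col9a3 by 5.53, Col9a2 by 3.74 and Col9a1 by 3.55. Col9a1 measured 15.7 and 19.1 FPKM in the Sox10+EpCAM+ libraries, 13.2 and 9.18 in the CD24+CD49f+ libraries, 0.198 in EpCAM-negative stroma and 0.206 and 0.235 in CD24low stroma. The pattern of the 3 chains was alike, with the Sox10+EpCAM+ pair highest and stroma under 2 FPKM. Col2a1, the main cartilage collagen, was near detection in stroma and low in fMaSC (0.906 to 2.15 FPKM, a rise of 1.202). Acan, Comp, Matn1 and Hapln1, defining genes of cartilage, stayed under 1 FPKM in every library and were not tested.

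**Figure D2:**
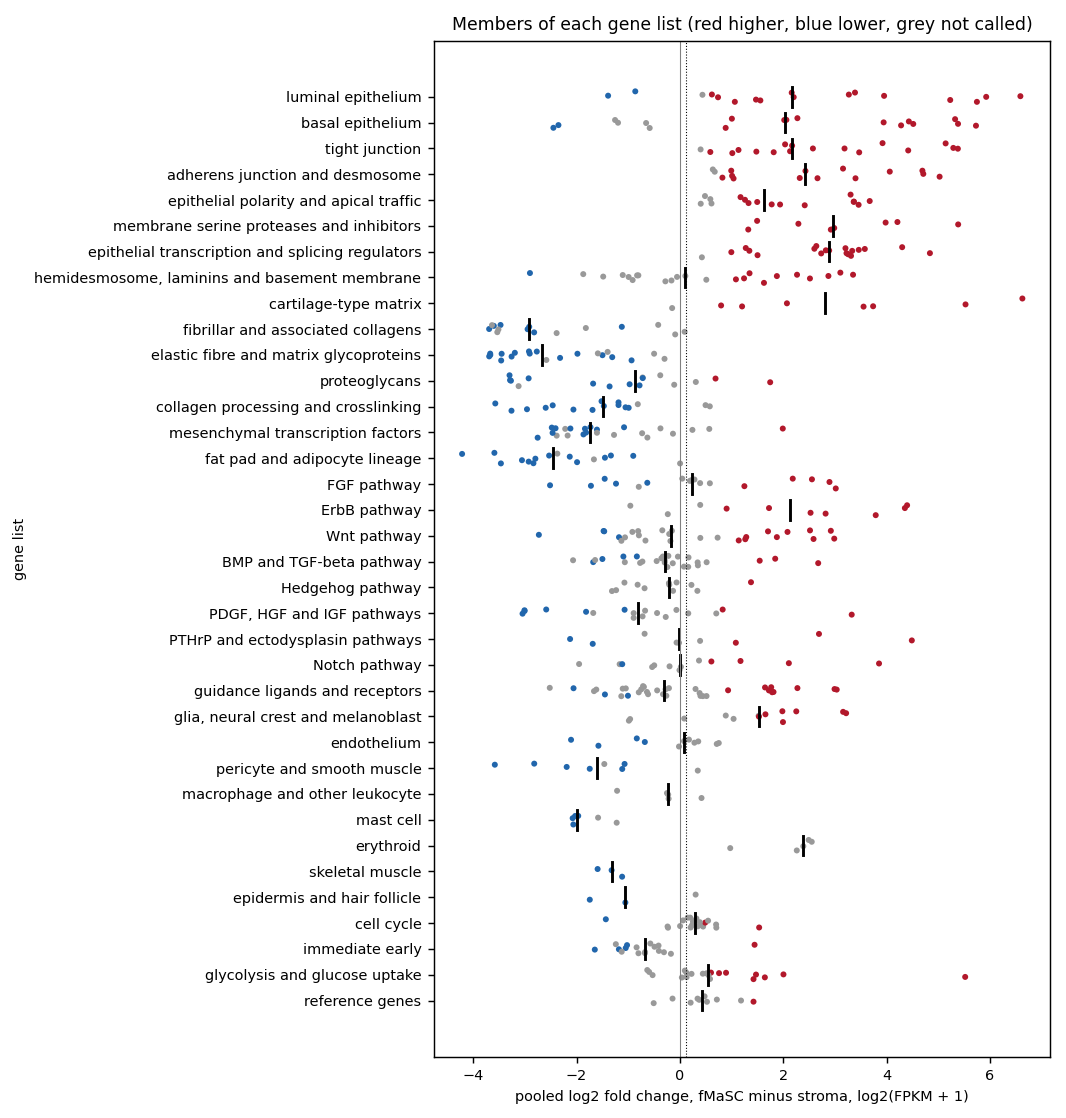
Pooled log2 fold change (fMaSC minus stroma, log2(FPKM + 1)) of each tested member of each gene list, with 1 point per gene, red for called higher, blue for called lower and grey for not called, a black bar at the median of the list and a dotted line at 0.12, the median of all genes tested. Junction, protease and epithelial regulator lists lie to the right, with medians of 1.64 to 2.95, matrix, mesenchymal and fat pad lists to the left at -0.88 to -2.92, and most signalling lists spread to both sides of 0.

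Matrix genes of the stroma fell, with differences that were much larger in the Sox10 sort. Of 15 fibrillar and associated collagen genes, 7 were called lower and none higher (median -2.92). Taken within each sort, the median was -1.17 in the CD24-CD49f sort and -5.41 in the Sox10-EpCAM sort, and for 10 of the 15 the difference between the sorts was itself called. The 3 collagen VI chains had among the largest falls in value but were not called in the pooled model (adjusted p = 0.0565, 0.0597 and 0.0556). Col6a1 measured 2.47 and 3.95 FPKM in the Sox10+EpCAM+ libraries, 128 and 223 in the CD24+CD49f+ libraries, 528 in EpCAM-negative stroma and 451 and 349.8 in CD24low stroma. All 4 fMaSC libraries lay below stroma, and the CD24+CD49f+ pair lay between the Sox10+EpCAM+ pair and stroma. The pooled model has no term for such a difference between sorts, so the difference enters its error. None of the 7 collagen calls was kept in all 7 fits without 1 library. A single one was kept without either Sox10+EpCAM+ library, without EpCAM-negative stroma, without CD24+CD49f+ replicate 1 or without CD24low replicate 1, and all 7 without CD24+CD49f+ replicate 2.

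Elastic fibre and matrix glycoproteins had 15 of 20 lower and none higher (median -2.68). Postn, the matricellular protein periostin, measured 9.97 and 18.4 FPKM in the Sox10+EpCAM+ libraries, 518 and 735 in the CD24+CD49f+ libraries, 1351 in EpCAM-negative stroma and 1509 and 1795 in CD24low stroma (-3.46 ± 1.00, adjusted p = 0.0452). Fn1, fibronectin, changed by -2.77 ± 0.55, adjusted p = 0.0145, the microfibril protein Fbn1 by -2.92 ± 0.51, adjusted p = 0.00923 and the fibulin-related Efemp1 by -3.69 ± 0.59, adjusted p = 0.00687. Sparc, which binds collagen, measured 97.5 and 125 FPKM in the Sox10+EpCAM+ libraries, 828 and 1077 in the CD24+CD49f+ libraries, 1823 in EpCAM-negative stroma and 2091 and 2189 in CD24low stroma (-2.32 ± 0.60, adjusted p = 0.0333). For Postn and Sparc all CD24+CD49f+ values lay below stroma, and the Sox10+EpCAM+ values far lower. The fibulins Fbln1 and Fbln2 were not called (-0.30 ± 0.22, adjusted p = 0.324 and -0.50 ± 0.26, adjusted p = 0.184). Of the 15 calls 3 were kept in all 7 fits, and 5 without either Sox10+EpCAM+ library.

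Proteoglycans were mixed, with 2 of 16 higher and 9 lower (median -0.88). The small leucine-rich proteoglycans of collagen fibrils fell, Dcn (decorin) by -3.2998, Lum (lumican) by -3.27, Aspn by -3.29 and Ogn by -2.93. Dcn measured 6.12 and 7.699 FPKM in the Sox10+EpCAM+ libraries, 316 and 356 in the CD24+CD49f+ libraries, 569.7 in EpCAM-negative stroma and 730.3 and 1047 in CD24low stroma. Stroma, CD24+CD49f+ fMaSC and Sox10+EpCAM+ fMaSC formed 3 separate levels. The cell-surface proteoglycans Sdc4 and Gpc1 rose instead, by 1.75 and 0.69, and syndecan-1 (Sdc1), well known from epithelia, was not called (0.31 ± 0.19, adjusted p = 0.26). Enzymes and chaperones of collagen processing had 13 of 16 lower and none higher (median -1.496). Pcolce, the enhancer of procollagen cleavage, changed by -3.58 ± 0.95, adjusted p = 0.0364, and the crosslinking oxidases Lox, Loxl1 and Loxl2 by -3.26, -2.96 and -2.5997. Serpinh1, the collagen chaperone, changed by -1.19 from a high level, and the lysyl hydroxylases Plod1 and Plod2 were not called (0.50, adjusted p = 0.0831, and 0.58, adjusted p = 0.0555). Of the 11 proteoglycan and 13 processing calls, 2 and 4 were kept in all 7 fits, and 3 and 5 without Sox10+EpCAM+ replicate 2.

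Among mesenchymal transcription factors 11 of 23 fell and 1 rose (median -1.73). Twist1 and Twist2, regulators of mesenchyme, changed by -2.48 and -2.76, Zeb1, a repressor of epithelial genes, by -2.47 and Osr2 by -2.41. Twist1 measured 0.739 and 0.844 FPKM in the Sox10+EpCAM+ libraries, 21.7 and 29.9 in the CD24+CD49f+ libraries, 47.1 in EpCAM-negative stroma and 57.2 and 45.4 in CD24low stroma. Prrx1, a limb and skin mesenchyme factor, was not called (-2.39 ± 0.89, adjusted p = 0.09) although its levels of 0.381 and 0.463 FPKM in the Sox10+EpCAM+ libraries, 19.2 and 46.3 in the CD24+CD49f+ libraries, 47.8 in EpCAM-negative stroma and 49.05 and 41.6 in CD24low stroma put the Sox10+EpCAM+ pair far below its stroma. CD24+CD49f+ replicate 2 overlapped with stroma for Prrx1, which replicate 1 did not. Foxc1 was the member that rose (1.99 ± 0.23, adjusted p = 0.00179), and Snai2, a Snail factor placed in the basal list, rose as well (0.88 ± 0.16, adjusted p = 0.0112). Snai2 measured 50.002 and 42.01 FPKM in the Sox10+EpCAM+ libraries, 31.1 and 39.8 in the CD24+CD49f+ libraries, 21.1 in EpCAM-negative stroma and 19.9 and 21.2 in CD24low stroma. Its levels were high in all 7 libraries, with fMaSC above stroma. Of the 12 calls 2 were kept in all 7 fits, and the same number without either Sox10+EpCAM+ library.

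The fat pad and adipocyte list had 13 of 16 lower and none higher (median -2.45). Pparg, the master regulator of adipocytes, measured 0.647 and 0.668 FPKM in the Sox10+EpCAM+ libraries, 24.5 and 23.9 in the CD24+CD49f+ libraries, 44.1 in EpCAM-negative stroma and 59.01 and 82.1 in CD24low stroma (-2.799 ± 0.63, adjusted p = 0.0217). Adipoq (adiponectin) measured 0.565 and 0.408 FPKM in the Sox10+EpCAM+ libraries, 71.3 and 27.9 in the CD24+CD49f+ libraries, 93.9 in EpCAM-negative stroma and 129 and 188 in CD24low stroma (-3.47 ± 0.85, adjusted p = 0.0283). For both, the CD24+CD49f+ libraries lay between stroma and the Sox10+EpCAM+ libraries, which held less than 1 FPKM. Lpl, lipoprotein lipase, changed by -3.59, the fatty acid binding protein Fabp4 by -2.93 and the lipid droplet gene Plin1 by -3.06. Dlk1, a preadipocyte protein that is also high in many fetal tissues, was not called (-2.37 ± 0.74, adjusted p = 0.0563), and Cebpb did not move with the list (0.00 ± 0.16, adjusted p = 0.994). Of the 13 calls 7 were kept in all 7 fits without 1 library.

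The level of stromal transcripts that remained in each fMaSC library was set against the mean stroma of the same sort. For the 15 collagen genes the median was 1.26% and 2.27% in the Sox10+EpCAM+ replicates, and 36.5% and 58.4% in the CD24+CD49f+ replicates. Mesenchymal transcription factors gave 1.59% and 2.87% against 42.8% and 75.5%, and fat pad genes 4.15% and 3.81% against 35.7% and 31.3%. Replicate 2 of CD24+CD49f+ had the higher share for collagens and transcription factors but not for fat pad genes. The median of the proteoglycan list did not show this split, at 41.7% and 42.0% against 40.0% and 63.6%. That list mixes 9 genes called lower with 2 called higher, and its members ran from 0.636% to 432% in Sox10+EpCAM+ replicate 1. Its members Dcn, Lum, Aspn and Ogn did split, with fold changes of -6.18, -5.86, -6.30 and -5.34 in the Sox10 sort. In the CD24-CD49f sort these were -1.38, -1.54, -1.28 and -1.32. The converse measure, epithelial transcripts in stroma as a share of fMaSC of the same sort, differed between lists. Tight junction genes had a median of 1.82% in EpCAM-negative stroma and 2.38% and 2.46% in CD24low stroma, and epithelial regulators 1.35%, 4.32% and 1.97%. Medians were higher for adherens junction and desmosome genes, at 6.74%, 17.2% and 3.36%, and basal genes had 1.22%, 7.90% and 5.89%. All genes called higher had medians of 31.4%, 45.4% and 43.6% in these stroma libraries, and all genes called lower had 17.1% and 18.7% in the Sox10+EpCAM+ and 46.9% and 56.3% in the CD24+CD49f+ libraries. Over all genes tested the medians were 101% to 105% in the fMaSC libraries and 84.7% to 89.7% in stroma. These shares describe the libraries, and whether they come from other cells in the gate was not tested.

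**Figure D3:**
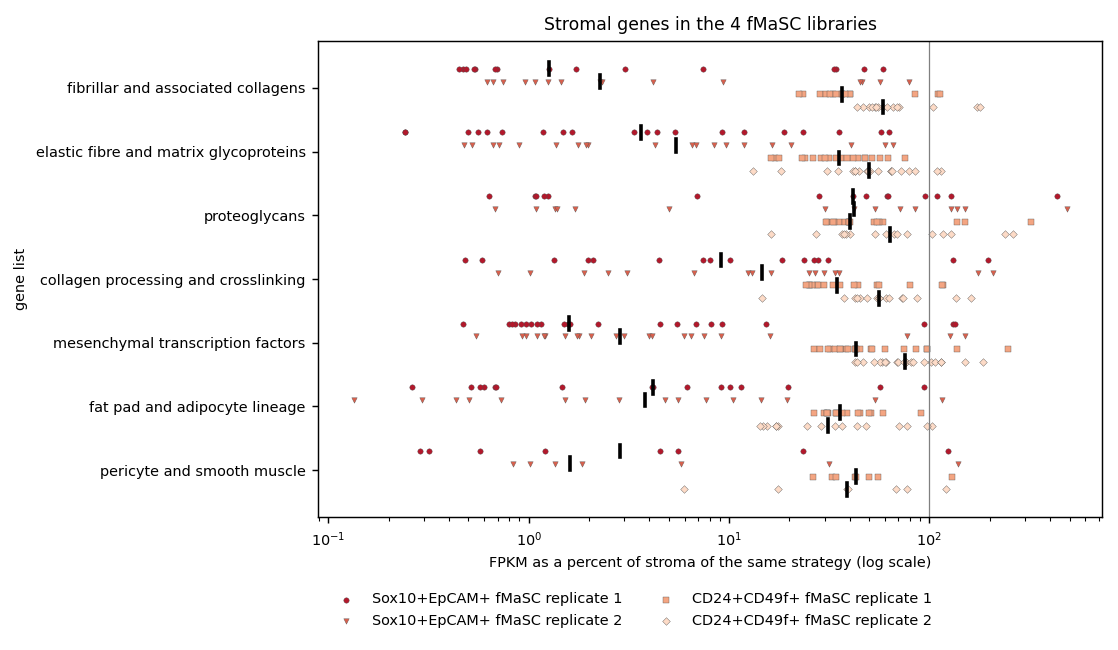
FPKM of stromal genes in each of the 4 fMaSC libraries as a percent of stroma of the same sorting strategy (log scale), with 1 point per gene, rows of points for the 4 libraries within each gene list and a black bar at each median. Collagens lie at medians of 1.26% and 2.27% in the Sox10+EpCAM+ libraries and 36.5% and 58.4% in the CD24+CD49f+ libraries. The proteoglycan list, which mixes genes that fell and rose, has medians of 41.7% and 42.0% against 40.0% and 63.6%.

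Of the signalling lists, several had most of their tested members not called, 20 of 27 for BMP and TGF-beta, 11 of 12 for Hedgehog and 22 of 34 for guidance genes. Most genes of the whole set were not called either, as 25.1% of all genes tested were called, 15.6% higher and 9.50% lower. In the FGF pathway 5 of 17 rose and 5 fell (median 0.22, and -0.11 with libraries scaled to the same sum). The ligands Fgf10, Fgf7 and Fgf18 fell, Fgf10 by -2.52 ± 0.64, adjusted p = 0.0315, Fgf7 by -1.72 and Fgf18 by -1.46. Fgf10, the mesenchymal ligand required for mammary buds, measured 0.152 and 0.124 FPKM in the Sox10+EpCAM+ libraries, 6.88 and 13.4 in the CD24+CD49f+ libraries, 24.03 in EpCAM-negative stroma and 22.5 and 25.1 in CD24low stroma. Its receptor gene Fgfr2 rose by 1.25 ± 0.22, adjusted p = 0.00994, and Fgfr1 was not called (0.58 ± 0.28, adjusted p = 0.163). The FGF-induced targets Etv4, Etv5 and Dusp6 rose by 2.89, 2.18 and 3.02, and another target, Spry4, changed by -1.24. Dusp6 measured 164 and 200.1 FPKM in the Sox10+EpCAM+ libraries, 84.8 and 92.2 in the CD24+CD49f+ libraries, 13.4 in EpCAM-negative stroma and 15.05 and 12.8 in CD24low stroma, with the Sox10+EpCAM+ pair highest. The call of Fgf10 was lost in 4 of the 7 fits without 1 library (both Sox10+EpCAM+ libraries, EpCAM-negative stroma and CD24+CD49f+ replicate 1, adjusted p up to 0.0811).

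ErbB genes lay on the epithelial side, with 7 of 10 higher and none lower (median 2.13). The ligand genes Tgfa, Epgn, Areg, Nrg1 and Nrg2 rose by 4.397, 3.79, 2.82, 2.53 and 1.72. Areg, the ligand needed for ductal growth at puberty, measured 13.9 and 13.4 FPKM in the Sox10+EpCAM+ libraries, 6.73 and 4.81 in the CD24+CD49f+ libraries, 0.314 in EpCAM-negative stroma and 0.227 and 0.3504 in CD24low stroma. Of the receptors, Erbb3 rose by 4.35 ± 0.26, adjusted p = 0.000153 and Erbb2 by 0.90 ± 0.19, adjusted p = 0.0184, while Egfr was not called (-0.96 ± 0.35, adjusted p = 0.0849). Egfr measured 2.18 and 2.42 FPKM in the Sox10+EpCAM+ libraries, 5.24 and 12.8 in the CD24+CD49f+ libraries, 9.68 in EpCAM-negative stroma and 11.8 and 11.9 in CD24low stroma. Its Sox10+EpCAM+ values were the lowest and CD24+CD49f+ replicate 2 lay above all stroma libraries. Of the 7 calls 6 were kept in all 7 fits without 1 library.

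Wnt pathway genes divided between the layers, with 10 of 26 higher and 4 lower (median -0.17). The ligands Wnt2, Wnt2b and Wnt10b changed by -2.73, -1.48 and -1.47, and Wnt5b and Wnt6 rose by 1.88 and 1.704. Wnt2 measured 0.149 and 0.124 FPKM in the Sox10+EpCAM+ libraries, 4.99 and 2.86 in the CD24+CD49f+ libraries, 12.4 in EpCAM-negative stroma and 18.1 and 24.002 in CD24low stroma (-2.73 ± 0.32, adjusted p = 0.00196). Among receptors Lgr5, Lgr4 and Lgr6, which bind R-spondins, rose by 2.59, 1.26 and 1.14, Fzd6 and Fzd3 by 2.52 and 1.28, and Fzd2 changed by -1.18. Lgr5, a marker of stem cells in several epithelia, measured 25.9 and 34.1 FPKM in the Sox10+EpCAM+ libraries, 15.4 and 18.5 in the CD24+CD49f+ libraries, 3.46 in EpCAM-negative stroma and 3.54 and 1.34 in CD24low stroma. The secreted inhibitors Wif1 and Sfrp1 rose by 2.99 and 2.92. Axin2, the common readout of canonical signalling, was not called (-0.16 ± 0.31, adjusted p = 0.724), with 1.35 and 1.502 FPKM in the Sox10+EpCAM+ libraries, 3.12 and 5.12 in the CD24+CD49f+ libraries, 3.07 in EpCAM-negative stroma and 4.81 and 2.13 in CD24low stroma. Of the 14 Wnt calls 13 were kept in all 7 fits without 1 library.

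In the BMP and TGF-beta list 3 of 27 rose and 4 fell (median -0.29), against 15.6% higher and 9.50% lower over all genes tested. The ligand Bmp7 and the inhibin subunit Inhbb rose by 1.54 and 2.68, and Bmp2 and Bmp3 changed by -1.502 and -1.68. Bmp4, the mesenchymal ligand of the bud stage, was not called (-1.07 ± 0.32, adjusted p = 0.0508), and the receptor Tgfbr2 changed by -0.83. The target Id2 rose by 1.84 ± 0.29, adjusted p = 0.00605, whereas Id1 and Id3 were not called (-0.77, adjusted p = 0.14, and -0.30, adjusted p = 0.41). Bmp7 lost its call in 4 of the 7 fits without 1 library (up to 0.0877), and with libraries scaled to the same sum (adjusted p = 0.126).

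The parathyroid hormone-related protein and ectodysplasin list had 3 of 9 higher and 2 lower (median -0.02). Pthlh, the epithelial hormone gene that conditions the mammary mesenchyme, measured 59.8 and 62.1 FPKM in the Sox10+EpCAM+ libraries, 45.1 and 26.6 in the CD24+CD49f+ libraries, 0.825 in EpCAM-negative stroma and 0.765 and 1.48 in CD24low stroma (4.49 ± 0.29, adjusted p = 0.000198). Its receptor gene Pth1r measured 0.114 and 0.0744 FPKM in the Sox10+EpCAM+ libraries, 3.8996 and 4.805 in the CD24+CD49f+ libraries, 13.6 in EpCAM-negative stroma and 11.03 and 9.15 in CD24low stroma (-2.13 ± 0.52, adjusted p = 0.028). Ligand and receptor lay on opposite sides in all 7 libraries. Edar, the ectodysplasin receptor, rose by 2.69, and its ligand Eda was not called (-0.68 ± 0.23, adjusted p = 0.0678). Tnfrsf11a, which encodes RANK, rose by 1.08, and Tnfrsf11b, the decoy receptor of its ligand, changed by -1.69. Pth1r lost its call in 4 of the 7 fits without 1 library, up to adjusted p = 0.0728.

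The list of PDGF, HGF and IGF ligands, receptors and binding proteins had 2 of 18 higher, 6 lower and 10 not called (median -0.81). Pdgfc, a ligand, rose by 3.32 ± 0.22, adjusted p = 0.00024 and Pdgfb by 0.83, and the receptor Pdgfrb changed by -3.01 ± 0.67, adjusted p = 0.0207. Pdgfrb measured 0.6496 and 0.896 FPKM in the Sox10+EpCAM+ libraries, 9.11 and 10.5 in the CD24+CD49f+ libraries, 59.1 in EpCAM-negative stroma and 40.1 and 25.96 in CD24low stroma. Igf2, the fetal growth factor, measured 21.1 and 29.2 FPKM in the Sox10+EpCAM+ libraries, 642 and 799.5 in the CD24+CD49f+ libraries, 1483 in EpCAM-negative stroma and 1646 and 1612 in CD24low stroma (-3.05 ± 0.90, adjusted p = 0.0486). Its call was lost in 6 of the 7 fits without 1 library, up to adjusted p = 0.121. Igf1 was not called (-1.68 ± 0.80, adjusted p = 0.156), and its CD24+CD49f+ values of 19.3 and 40.3 FPKM overlapped with stroma (19.9, 24.9 and 34.2). Its Sox10+EpCAM+ values were 0.111 and 0.315 FPKM.

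The Hedgehog list had 1 of 12 higher and none lower (median -0.21). The ligand that rose was Dhh, known from Schwann cells, at 0.213 and 0.376 FPKM in the Sox10+EpCAM+ libraries, 5.03 and 3.37 in the CD24+CD49f+ libraries, 0.0653 in EpCAM-negative stroma and 0.302 and 0.0911 in CD24low stroma (1.37 ± 0.38, adjusted p = 0.0404). Its level was high in the CD24+CD49f+ pair and under 0.4 FPKM in all other libraries, and the call was also lost with libraries scaled to the same sum (adjusted p = 0.0575). With 1 library left out the call was kept only without EpCAM-negative stroma. It was lost in 4 fits (adjusted p up to 0.117), and without either CD24+CD49f+ library the gene fell below the filter and was not tested. Shh and Ihh were under 0.2 FPKM throughout and not tested. The receptor Ptch1 and the effector Gli1 were not called (-0.07 ± 0.39, adjusted p = 0.911 and -1.32 ± 0.79, adjusted p = 0.238). Gli1 measured 0.115 and 0.2704 FPKM in the Sox10+EpCAM+ libraries, 8.998 and 24.01 in the CD24+CD49f+ libraries, 13.6 in EpCAM-negative stroma and 16.04 and 9.83 in CD24low stroma, low only in the Sox10+EpCAM+ pair.

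In the Notch list 4 of 13 rose and 1 fell (median -0.01). The ligand Dll1, linked to mammary stem cells in adults, measured 36.4 and 36.5 FPKM in the Sox10+EpCAM+ libraries, 16.1 and 21.999 in the CD24+CD49f+ libraries, 1.02 in EpCAM-negative stroma and 0.744 and 0.5003 in CD24low stroma (3.85 ± 0.19, adjusted p = 0.0001). The receptor Notch1 rose by 1.17 ± 0.21, adjusted p = 0.0105, Notch3, a receptor of pericytes and smooth muscle, changed by -1.12 ± 0.27, adjusted p = 0.027, and the target Hey1 rose by 2.11. The target Hes1 was not called (0.02 ± 0.22, adjusted p = 0.96). Among guidance ligands and receptors 9 of 34 rose and 3 fell (median -0.30), against 15.6% and 9.50% over all genes tested. The ephrin Efna1 and its receptor Epha2 rose by 3.03 and 2.27, and the semaphorins Sema3b and Sema6a by 2.99 and 1.81. Epha3 and Sema3a changed by -2.06 and -1.45. Of the Notch and guidance calls, 2 of 5 and 9 of 12 were kept in all 7 fits, and without the EpCAM-negative library 2 and 10.

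Cell cycle genes differed little. Of 21 tested 2 were higher and 1 lower (median 0.30, and -0.18 with libraries scaled to the same sum). The shares over all genes tested were 15.6% higher and 9.50% lower. Ccnd1, cyclin D1, rose by 1.53 ± 0.19, adjusted p = 0.00265, and Cdkn1c, the inhibitor p57, changed by -1.44 ± 0.24, adjusted p = 0.00783. Cdkn1c measured 90.6 and 102 FPKM in the Sox10+EpCAM+ libraries, 194 and 174 in the CD24+CD49f+ libraries, 367 in EpCAM-negative stroma and 399 and 395 in CD24low stroma. Mki67 was not called (0.00 ± 0.33, adjusted p = 0.998) and was highest in CD24+CD49f+ replicate 2, at 41.1 FPKM against 15.97 to 24.5 in the other libraries. The rise of Mcm5, a part of the replication helicase (0.49), was lost in 6 of the 7 fits without 1 library and under all 3 other scalings.

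Immediate early genes, which cells induce within minutes of stress or stimulation, had 1 of 17 higher and 4 lower (median -0.68). Over all genes tested the shares were 15.6% and 9.50%. Egr1 measured 156 and 181 FPKM in the Sox10+EpCAM+ libraries, 426 and 756 in the CD24+CD49f+ libraries, 1184 in EpCAM-negative stroma and 1116 and 974 in CD24low stroma (-1.65 ± 0.47, adjusted p = 0.0433), highest in stroma and lowest in the Sox10+EpCAM+ pair. The call was lost in 5 of the 7 fits without 1 library (adjusted p up to 0.237). Ier3 rose (1.44 ± 0.23, adjusted p = 0.00636). Fos and Jun were not called (-0.49 ± 0.24, adjusted p = 0.168 and -0.84 ± 0.29, adjusted p = 0.0758). Of the 5 calls 1 was kept without the EpCAM-negative library. Glycolysis and glucose uptake had 8 of 20 higher and none lower (median 0.53). Besides Aldoc, pyruvate kinase Pkm rose by 2.004 ± 0.22, adjusted p = 0.00132, Pgk1 by 1.64 and the glucose transporter Slc2a1 by 0.60, while Aldoa, the widespread aldolase, was not called (0.12 ± 0.24, adjusted p = 0.717). Of these calls 5 of 8 were kept with libraries scaled to the same sum, and 4 in all 7 fits without 1 library. Of 10 reference genes Gapdh alone was called (1.42 ± 0.26, adjusted p = 0.0103), and the median of the list was 0.42, or -0.08 with libraries scaled to the same sum. Actb was not called (0.37 ± 0.26, adjusted p = 0.304).

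Markers of other cell types moved with some groups. Of 13 glial and neural crest genes 7 were higher and none lower (median 1.53). Mbp, a myelin protein, measured 4.74 and 8.14 FPKM in the Sox10+EpCAM+ libraries, 67.99 and 37.7 in the CD24+CD49f+ libraries, 0.651 in EpCAM-negative stroma and 2.61 and 2.14 in CD24low stroma (3.22 ± 0.42, adjusted p = 0.00312). The CD24+CD49f+ pair had the highest values, and summed over the list it held 247 and 188 FPKM, against 35.7 and 48.4 in the Sox10+EpCAM+ pair and 39.5 to 48.5 in stroma. With the Sox10+EpCAM+ libraries alone against stroma 1 of the 7 calls was kept, and with the CD24+CD49f+ libraries alone all 7. Since Sox10 is also a glial gene, its level in the CD24+CD49f+ pair stands beside these values, and their part in it was not tested.

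Blood, vessel and muscle markers were examined as well. Globins were not called (Hba-a1 2.39 ± 1.003, adjusted p = 0.119), and Hba-a1 read 1984 and 217 FPKM in the CD24+CD49f+ pair against 26.7 to 58.2 in the other libraries, with Hbb-y at 0 in all 7. Mast cell genes had 4 of 6 lower (median -1.9998), with Cma1, mast cell chymase, at 1.55 and 5.29 FPKM in the Sox10+EpCAM+ libraries, 9.75 and 8.27 in the CD24+CD49f+ libraries, 4.92 in EpCAM-negative stroma and 86.02 and 63.5 in CD24low stroma. High values were limited to CD24low stroma, the list sums were 3.47 to 26.1 FPKM in fMaSC and 16.2 to 272 in stroma, and none of the 4 calls was kept in all 7 fits. Of 5 leukocyte genes tested none was called (14 were looked up, and Ptprc, which encodes CD45, was under 0.6 FPKM in every library), with list sums of 4.17 to 16.3 FPKM in fMaSC and 9.87 to 23.4 in stroma. Endothelial genes had 4 of 11 lower and none higher (median 0.08), and their sums were 10.4 and 10.8 FPKM in the Sox10+EpCAM+ pair, 52.01 and 49.3 in the CD24+CD49f+ pair and 28.1 to 46.2 in stroma. As a percent of the summed FPKM of each library, the vessel markers made up 0.00742% in EpCAM-negative stroma and 0.0119% and 0.00746% in CD24low stroma. The CD24+CD49f+ pair, at 0.00691% and 0.0116%, overlapped with stroma on that scale. The Sox10+EpCAM+ pair, at 0.00141% and 0.00178%, lay below every stroma library.

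Pericyte genes had 6 of 8 lower (median -1.61), led by Rgs5 (-3.58 ± 0.68, adjusted p = 0.0117) and Kcnj8 (-2.82 ± 0.50, adjusted p = 0.00942), a regulator of G-protein signalling and a potassium channel of pericytes. Rgs5 measured 0.289 and 0.685 FPKM in the Sox10+EpCAM+ libraries, 14.9 and 2.73 in the CD24+CD49f+ libraries, 50.3 in EpCAM-negative stroma and 35.1 and 56.2 in CD24low stroma, and the list sums were 40.3 to 80.7 FPKM in fMaSC and 134 to 161 in stroma. Of 8 listed skeletal muscle genes, 5 were below the filter. All 3 tested ones fell from low levels (Actc1 -1.59 ± 0.28, adjusted p = 0.00984). Myog and Acta1 were under 1 FPKM in every fMaSC library and passed the filter only through stroma, which favours a fall in advance. The list sums were 0.289 to 4.27 FPKM in fMaSC and 9.59 to 10.04 in stroma. Of 3 tested epidermal genes Sbsn and Krtdap fell (Krtdap -1.75 ± 0.51, adjusted p = 0.048), and Krt10, a keratin of differentiated epidermis, was not called (0.30 ± 0.16, adjusted p = 0.189). Krt1, Ivl and Krt77 stayed below 0.4 FPKM in all libraries, and the list sums were 4.21 to 9.11 FPKM in fMaSC and 9.21 to 18.9 in stroma. Calls on the pericyte, muscle and epidermis lists kept in all 7 fits were 2 of 6, 1 of 3 and 0 of 2.

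The fold change was then compared between the sorting strategies. It differed for 218 genes (1.51% of those tested), 11 of them with a larger and 207 with a smaller value in the Sox10 sort, and 2112 genes passed an unadjusted p of 0.05. The count was 4 to 7 without either Sox10+EpCAM+ or either CD24low library, 974 and 397 without CD24+CD49f+ replicate 1 or 2, and 43 with libraries scaled to the same sum, so the adjusted p-values of single genes below rest on the full set of 7 libraries. Of the 218 genes 130 were also called in the pooled comparison. Genes called higher had median fold changes of 0.83 in the CD24-CD49f sort and 1.22 in the Sox10 sort, and genes called lower -0.75 and -1.54. The comparison rests on 1 EpCAM-negative library, whose spread is assumed to be that of the other groups. Among the genes that carried the difference were collagen VI, Col6a2 (-5.85 ± 0.55, adjusted p = 0.0163), Col1a1 (-5.51 ± 0.79, adjusted p = 0.0369), Clec3b, a plasminogen-binding matrix protein (-5.52 ± 0.43, adjusted p = 0.0126), and Lpl (-5.03 ± 0.30, adjusted p = 0.0058). For Lpl the fold change was -1.58 in the CD24-CD49f sort and -6.61 in the Sox10 sort. No epithelial junction, polarity, protease or regulator gene on the lists had a difference that was called. With 1.51% called over all genes tested, few such calls would fall on lists of this size in any case. Their median fold changes were larger in the Sox10 sort. They were 2.67 against 1.95 in the CD24-CD49f sort for tight junction genes, 1.94 against 1.38 for polarity genes and 3.52 against 2.47 for regulators.

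**Figure D4:**
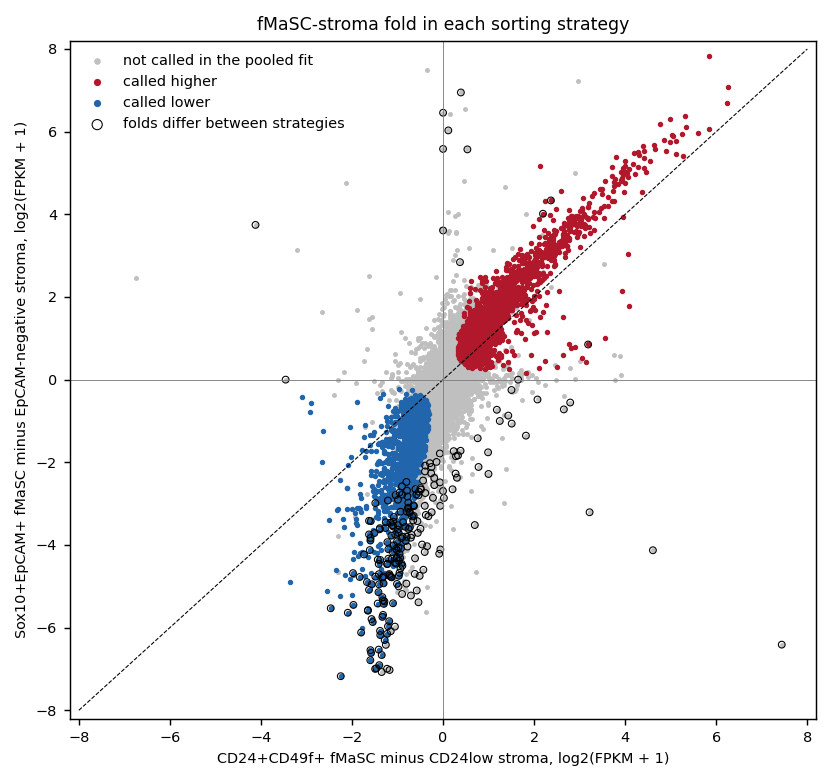
Fold change of each of 14418 genes in the CD24-CD49f sort (horizontal) and in the Sox10-EpCAM sort (vertical), both in log2(FPKM + 1), with genes called in the pooled comparison in red (higher) and blue (lower), genes whose fold changes differ between the sorts circled and the dashed line marking equal values. Genes called higher have medians of 0.83 and 1.22, and genes called lower bend downward, with medians of -0.75 and -1.54. Both are larger in size in the Sox10 sort. A difference between the sorts enters the error of the pooled fit, so the calls favour genes near the line.

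Genes with a larger value in the Sox10 sort were led by histone H2B genes, parts of the nucleosome. Hist1h2bm measured 224 and 238 FPKM in the Sox10+EpCAM+ libraries, 1.33 and 0.203 in the CD24+CD49f+ libraries, 0.881 in EpCAM-negative stroma and 0.5996 and 0.0192 in CD24low stroma (difference 6.56 ± 0.58, adjusted p = 0.0154). Hist1h2bf and Hist1h2bb differed by 5.92 ± 0.32, adjusted p = 0.00419 and 5.04 ± 0.70, adjusted p = 0.0354. High values were limited to the Sox10+EpCAM+ pair, the same libraries in which the added spliced GFP sequence read 202 and 211 FPKM. The part of the Sox10-Venus reporter in either set of values was not tested. H2B genes are near-identical copies, so reads may be shared between them and the split among them is uncertain. None was called in the pooled comparison (Hist1h2bm adjusted p = 0.116). Pglyrp1, a peptidoglycan recognition protein, and Slc15a2, a peptide transporter, were called in both, with Pglyrp1 at 21.3 and 19.9 FPKM in the Sox10+EpCAM+ libraries, 5.34 and 5.26 in the CD24+CD49f+ libraries, 0.0703 in EpCAM-negative stroma and 0.132 and 0.315 in CD24low stroma (pooled 3.16 ± 0.39, adjusted p = 0.00236). The Sox10+EpCAM+ pair was highest, the CD24+CD49f+ pair lower and all stroma under 1 FPKM.

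The calls were last set against each fit that left out 1 library. In the fit without EpCAM-negative stroma the Sox10 sort has no stroma, so the fold change came from the CD24-CD49f sort alone. In all 7 fits without 1 library 970 of the 2252 genes called higher (43.1%) and 306 of the 1369 called lower (22.4%) kept their call. Of the genes singled out by fold, level or list, 87 of 98 higher and 15 of 68 lower did so. Without the EpCAM-negative library 47.0% of the higher and 30.5% of the lower calls were kept, without Sox10+EpCAM+ replicate 1 54.0% and 34.0%, and without replicate 2 52.8% and 30.5%. Without CD24+CD49f+ replicate 2 the shares were 96.8% and 98.0%, and the number of calls rose from 3621 to 6374. No called gene was called in the other direction in any of these fits. Epcam, Krt8, Cdh1, Tfap2c and Esrp1 kept adjusted p below 0.05 in all 7, as did Pi16, Efemp1 and Cd34 on the stromal side.

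**Figure D5:**
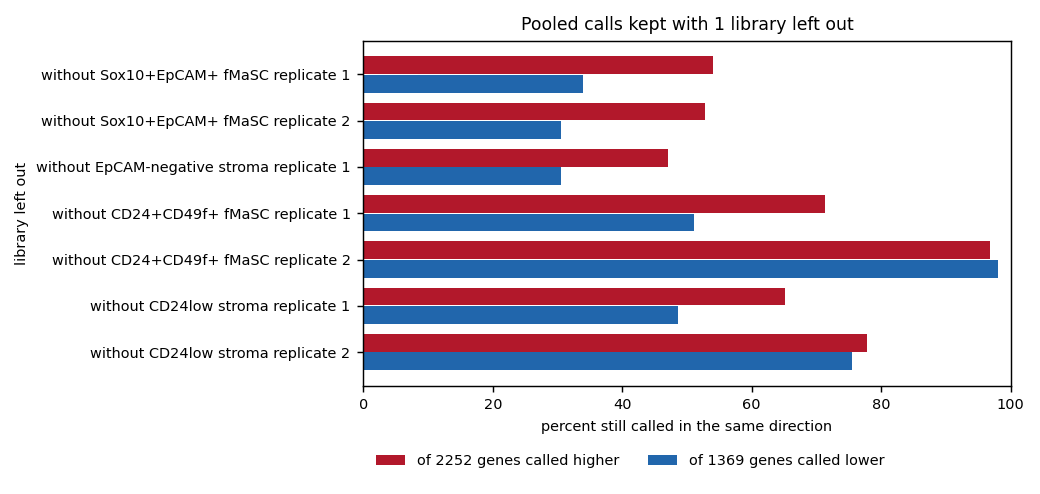
Percent of the 2252 genes called higher (red) and the 1369 called lower (blue) that were still called in the same direction when the named library was left out of the fit. Without EpCAM-negative stroma the fold change came from the CD24-CD49f sort alone. The shares run from 47.0% to 96.8% for higher and from 30.5% to 98.0% for lower calls, and the highest is without CD24+CD49f+ replicate 2.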

How the data were processed

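RNA of 7 sorted libraries was sequenced as 100-base paired ends (TruSeq, HiSeq2000), per the labels' protocols. The submitters' processing notes name STAR, Cufflinks and GRCm38/mm10, with no versions. The authors deposited FPKM values, per the file headers, in 1 table with a column per library. Its 38579 gene entries (8 added sequences left out) were matched to GENCODE vM21 names (95.0%).

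After log2(FPKM + 1) transformation, 14418 genes reaching 1 FPKM in at least 2 of 7 libraries were tested. Limma 3.58.1 in R 4.3.3 fitted cell type plus strategy with an empirical Bayes trend (4 residual degrees of freedom), so the pooled fold change weights the CD24-CD49f sort 0.6 and the Sox10-EpCAM sort 0.4. The difference between sorts came from a fit of 4 group means with 3 residual degrees of freedom. Two-sided p-values were adjusted by Benjamini-Hochberg over all tested genes, with a threshold of 0.05. The pooled fit was also run on simulated data that held no strategy effect and no difference between sorts. The fit of 4 group means was not tested in this way. Alternatives were the pseudocount, filter, scaling, trend, covariate, weighting, fold size and each library left out. With EpCAM-negative stroma left out, the strategy term takes up the Sox10+EpCAM+ libraries, so the fold change rests on the CD24-CD49f sort. Depth was estimated from values of few fragments on transcripts of 800 to 6000 bases, 60.8% to 66.1% of them within 0.15 of a whole number, so it is approximate. By it 1 fragment on 2 kb is worth 0.01484 to 0.02237 FPKM.

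Genes were named by rule: the sort markers, up to 15 per direction with the largest fold change (called, libraries not overlapping, at least 5 FPKM in the higher cell type, no provisional names), up to 5 per direction by FPKM difference, up to 5 called members per list and up to 6 per direction by the difference between sorts. Some genes that the rule names are not reported here. Other list members were picked for the text after their values were seen. The comparison, the 37 gene lists (605 genes) and the promoters (RefSeq, GRCm38.p6) were chosen with earlier results of these data known. Figures used Python 3.11.15 and matplotlib 3.10.9.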

Additional observations from a re-analysis of the deposited data

Results flagged for a closer look

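In 4 of 175 genes screened, 1 fMaSC library lay far from the other 3 by Dixon's criterion for 4 values on log2(FPKM + 1). Chance meets it in about 1 in 20 groups. On FPKM itself Wfdc18 did not meet it (ratio 0.763). CD24+CD49f+ replicate 2 was low for Wfdc18 (21.3 FPKM, others 82.1 to 101.1) and Lgals7 (16.9, others 61.7 to 68.2). CD24+CD49f+ replicate 1 was high for the muscle genes Actc1 (1.53, others 0.0512 to 0.164) and Myog (0.487, others 0.0255 to 0.0699). The direction of the pooled value was the same in all 4 fMaSC libraries for each of these genes.

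Sequences added to the table were not part of the comparison. The added GFP sequences read up to 21.9 FPKM (mL1-GFP_reporter) and 211 FPKM (spliced_GFP) in the Sox10+EpCAM+ libraries and at most 0.068 and 0.660 FPKM in the others.

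The fold change differed between the sorting strategies in 42 of the 175 genes named by rule. This is limma's test of the difference itself (Sox10 sort minus CD24-CD49f sort, adjusted p under 0.05). Over all 14418 genes tested the count was 218 (1.51%). Up to 6 genes per direction were named for the size of this same difference, so the count of 42 is partly set by the choice. Larger in the Sox10 sort were Hist1h2bm (6.56), Hist1h2bf (5.92), Hist1h2bb (5.04), Hist2h2be (2.47), Pglyrp1 (1.97) and Slc15a2 (1.82), all named for this difference alone.

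Lower in the Sox10 sort by signed value were collagen genes, Col6a2 (-5.85), Col6a1 (-5.76), Col6a3 (-5.73), Col1a1 (-5.51), Col1a2 (-5.51), Col3a1 (-5.32), Col5a1 (-4.13) and Col5a3 (-4.08). Their fold changes were negative in both sorts and larger in size in the Sox10 sort, as for Col6a2 at -7.03 against -1.17. Matrix and processing genes followed, with Clec3b (-5.52), Dpt (-5.19), Postn (-5.12), Aspn (-5.02), Pcolce (-4.95), Dcn (-4.80), Lox (-4.69), Lum (-4.32), Ogn (-4.02), Nid1 (-3.93), Loxl2 (-3.57), Loxl1 (-3.23) and Efemp1 (-3.06). Fat pad and mesenchymal genes were Lpl (-5.03), Car3 (-4.93), Twist1 (-3.78), Twist2 (-3.62), Osr2 (-3.21) and Plin1 (-2.70). Surface, receptor and growth factor genes were Igf2 (-4.66), Cd248 (-4.32), Cd34 (-3.55), Igfbp7 (-3.52), Pdgfrb (-3.46), Fgf10 (-3.24), Igfbp6 (-2.94) and Pth1r (-2.69). The glial receptor Gfra3 (-2.34) was the member of this group whose fold change was positive in both sorts. The EpCAM-negative group is 1 library, so its spread was taken from the other groups.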

How the results depend on the processing

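No called gene was called in the other direction under any alternative that was run. Of 3621 calls (2252 higher, 1369 lower), scaling each library to the same sum gave 1718 (791 higher), quantile normalization 2056 lower, no filter 863 lower, the equal-weight mean of both within-sort fold changes 2202 lower, and a fold size of at least 1 gave 1841 (1087 higher, 754 lower). With alternatives chosen after seeing the data, the Sox10+EpCAM+ libraries alone against all stroma gave 7794 (4357 higher, 3437 lower) and the CD24+CD49f+ libraries alone 1332 (1024 higher, 308 lower). Leaving out 1 library gave 1563 to 6374 calls, 1129 to 3858 higher and 419 to 2516 lower. The 218 differences between sorts became 421 with a pseudocount of 0.1, 43 with the same sum per library, 104 with quantile normalization and 4 to 974 with 1 library left out, and could not be fitted without the EpCAM-negative library. Of 3140 values of named genes under alternatives, 2676 kept direction and call, 437 lost the call and 26 gained it. The single reversal was Hbb-bs, not called in the pooled comparison, at -0.0464 with the Sox10+EpCAM+ libraries alone. Beyond the alternatives' own construction, the cause of these changes was not tested. No paired analysis was possible because the labels tie no fMaSC library to a stroma library. Genes with under 1 FPKM in stroma have fold changes limited by the pseudocount.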
